A study of Saccharomyces cerevisiae with 12 samples.

Results

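The comparison set 6 yeast libraries without a working Taf14 YEATS pocket against 6 with one, all 12 libraries of the series. The 6 without it were 3 of a taf14 deletion strain with an empty plasmid (the deletion strain) and 3 of the same deletion strain whose plasmid carried the W81A form of TAF14 (the W81A strain). The 6 with it were 3 of wild type with the empty plasmid and 3 of the deletion strain whose plasmid carried full-length TAF14 (the TAF14 strain). All strains were BY4741, a haploid laboratory strain of mating type a, and every plasmid label included the pRS313 backbone and HA3-SSN6, so the TAF14 strain differed from wild type in where TAF14 was carried, and the W81A strain in that and in the allele. Total RNA was depleted of ribosomal RNA and sequenced, and reads were counted per gene. The question was which genes both strains lacking the pocket placed on the same side of both strains that had it. Growth conditions are not given in the sources used here, nor whether the 3 libraries of a strain came from separate cultures. P-values therefore measured the spread between libraries of a strain, and each side of the comparison held only 2 strains.

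Taf14 is a small nuclear protein found in the general transcription factors TFIID and TFIIF, in the chromatin remodellers INO80, SWI/SNF and RSC and in the histone acetyltransferase complex NuA3. Its YEATS domain is a reader of acylated lysines on histone H3, gripped in a pocket lined by aromatic residues, and the rest of the protein holds it in these complexes. A deletion strain therefore loses the whole protein, whereas the W81A strain keeps it with a mutated pocket that, per the series design, cannot bind acetylated histone H3.

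TAF14 (YPL129W, chromosome XVI, plus strand, 2 exons, 244 residues) is shown around its codon 81 because that codon is the difference between the W81A and TAF14 plasmids. The stretch is XVI:305613-305675 of the RefSeq R64 genome, the sacCer3 build, 5′ to 3′ on the coding strand, with codon 81 in capitals at 305643-305645.
TAF14 codon 81: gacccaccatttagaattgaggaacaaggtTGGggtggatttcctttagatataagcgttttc
This is the reference sequence, and the allele on the plasmid was not read here. TAF14 transcripts had 132, 129 and 148 CPM (counts scaled to the size of each library) in wild type, 355, 143 and 302 in the TAF14 strain, 0.437, 0.199 and 0.484 in the deletion strain and 223, 203 and 192 in the W81A strain. The deletion libraries were near 0, and the W81A libraries lay above all 3 wild type libraries, so TAF14 itself did not separate the sides. SPO19, which lies beside TAF14 at XVI:304387-305058, had a mean of 0.889 CPM in wild type and 89.9 in the TAF14 strain. Its mean was 2.94 in the deletion strain and 60.8 in the W81A strain. The 2 strains with TAF14 on the plasmid were thus high on both sides, and SPO19 was not called.

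Some libraries stood apart. Library totals ran from 9.01 M to 11.7 M counts. The median gene of chromosome XII stood higher than that of the other chromosomes by 0.489 to 0.547 in log2 in the 3 deletion libraries and by 0.576 in replicate 2 of the TAF14 strain, against -0.00471 to 0.0338 in the other 8. That replicate also differed from replicates 1 and 3 of its strain in HSP12 (165 CPM against 6.18 and 6.18), in TAF14 and in HIS3, the plasmid marker (557 CPM against 1190 and 1050). It belongs to the working side. The counts of shared genes are given with and without it, as are HSP12, CHA1, FUS1 and SAM2, in which it stood apart from its strain. LEU2, URA3 and MET17, which BY4741 lacks, had 0 counts in every library, a limit of at most 0.327 CPM for 3 counts.

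Of 5918 tested genes, 1319 (22.3%) were called higher and 1359 (23.0%) lower without a working pocket, by edgeR's quasi-likelihood test of the mean of both lacking strains against the mean of both working strains, with Benjamini-Hochberg adjusted p below 0.05. A call of the mean did not require both lacking strains to move. Of the genes called higher, 391 had the deletion strain called higher than both working strains and the W81A strain than neither, and 106 had the reverse. Of those called lower, 355 and 59 did so. All 6 lacking libraries lay above all 6 working libraries for 315 genes (5.32%) and below them for 401 (6.78%). All of these were also called in the same direction except INP53, which encodes a synaptojanin-like phosphatase. The 315 higher and 400 lower genes (5.32% and 6.76% of those tested) are called shared genes below, and they made up 23.9% and 29.4% of the genes called in each direction. A stricter reading asked for a call in the same direction in each of the 4 pairs of a lacking and a working strain. It held for 202 higher genes (3.41%) and 271 lower genes (4.58%), together 7.99% of those tested, of which 193 and 263 were shared genes. Since the choice fixed their direction, the sizes of the shared genes are a description. Their median log2 difference was 0.45 for the higher and -0.50 for the lower genes, against 0.0039 over all tested genes. At least 2-fold differences were found for 54 of the 315 higher and 80 of the 400 lower shared genes, and for 3.35% of all tested genes.

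The shared genes differed in how far each lacking strain moved. Medians of the higher genes were 0.49 for the deletion strain and 0.40 for the W81A strain, each minus the mean of the working strains. Those of the lower genes were -0.51 and -0.45. Among the 315 higher genes the W81A strain was lower than the deletion strain for 93 and higher for 22. Among the 400 lower genes it was higher for 113 and lower for 30. In all, 258 shared genes were called between the lacking strains, 36.5% of the higher and 35.8% of the lower, against 45.2% of all tested genes. Without replicate 2 of the TAF14 strain the shared genes numbered 440 and 481, of which 412 were called. The working strains differed on 15.6% of the higher and 19.8% of the lower shared genes, against 16.9% of all tested genes, 8.11% higher and 8.75% lower in the TAF14 strain. That count, 128 genes, fell to 62, 76, 72 and 77 without replicate 1 or 2 of wild type or replicate 1 or 3 of the TAF14 strain, and was 222 without replicate 2 of the TAF14 strain. On chromosome XII lay 18 shared genes, 2.76% of the tested genes there being shared lower and 1.06% shared higher. The higher count depended on replicate 2 of the TAF14 strain, which carried the chromosome XII shift. It was 5 with that replicate and 79 without it, while the lower count was 13 in both.

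**Figure D1:**
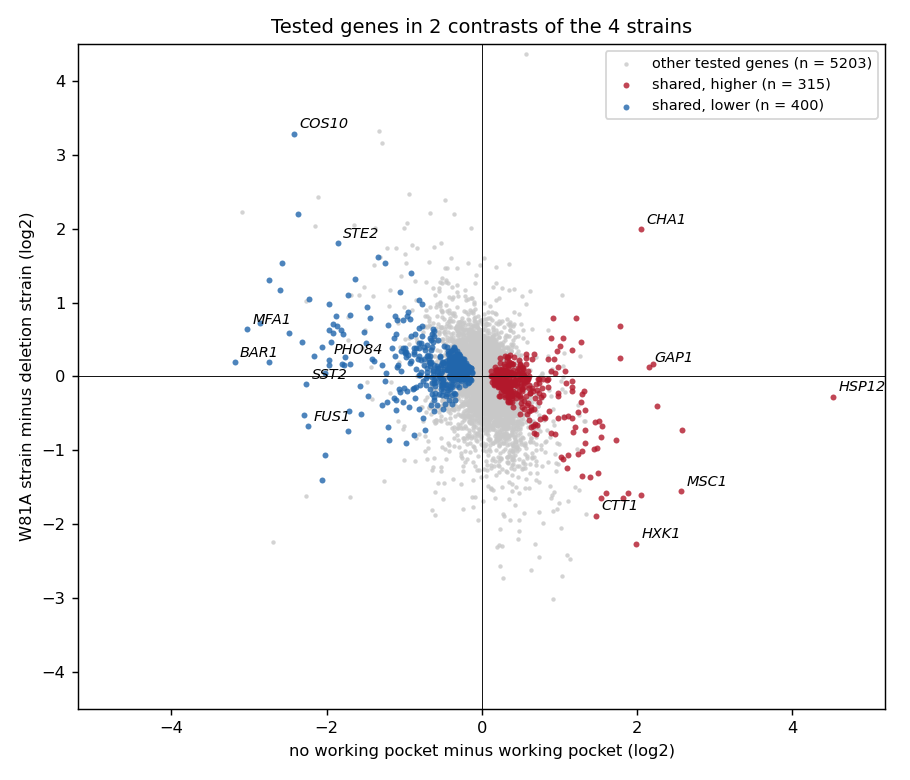
Each point is a tested gene, placed by its log2 difference between strains without and with a working pocket (x) and between the W81A and deletion strains (y). Shared higher genes (n = 315, red) and shared lower genes (n = 400, blue) spread above and below 0 on the y axis, with STE2 and COS10 high, MSC1 and HXK1 low and HSP12 and BAR1 near 0. 2 points lie outside the axes.

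**Figure D2:**
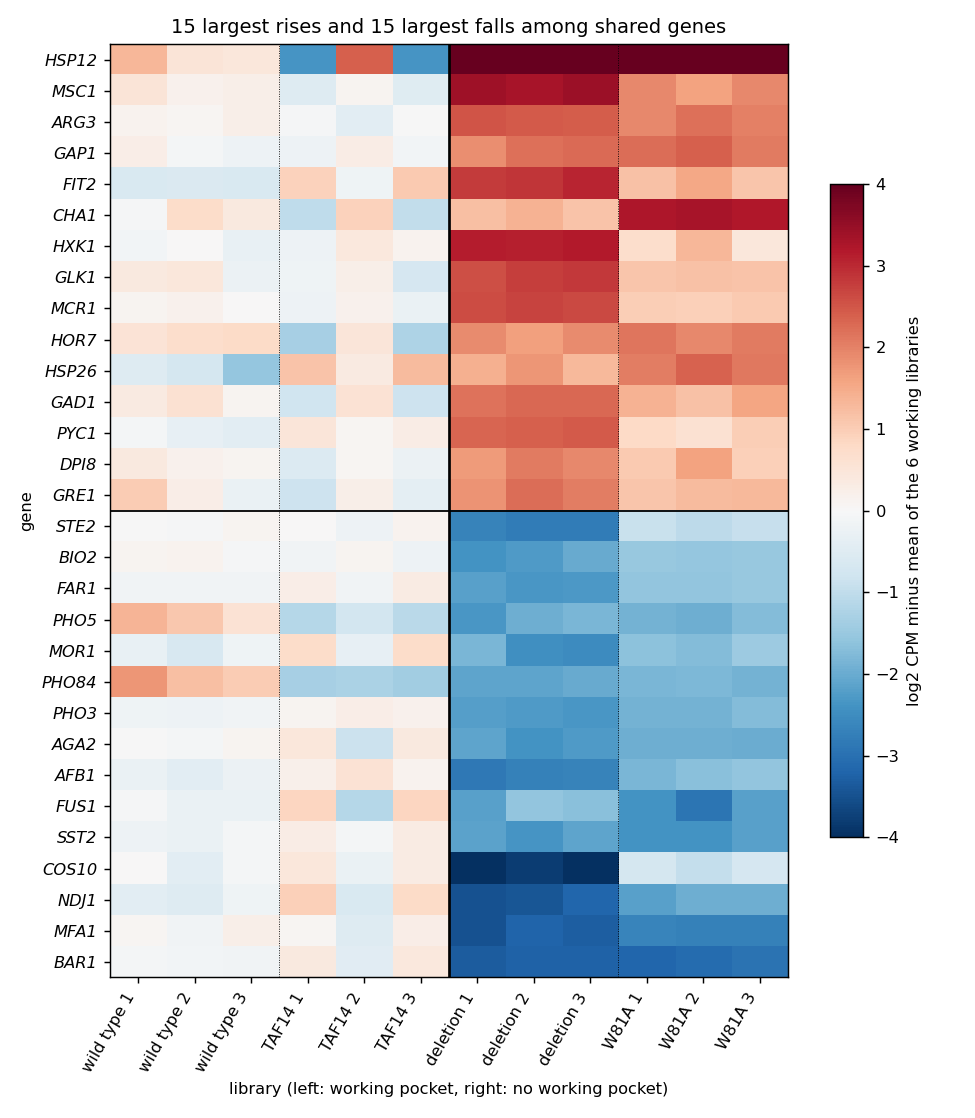
Colour gives log2 CPM in each of the 12 libraries (columns) minus the mean of the 6 working libraries, for the 15 shared genes with the largest rises and the 15 with the largest falls (rows), with the scale ending at 4 and -4. PHO84 and PHO5 are lower in the TAF14 strain than in wild type, and HSP12 varies among the working libraries from 6.18 to 165 CPM.

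The mating genes of a cells held the largest share of shared genes of any list described here, all of them lower. Of 29 tested a-specific and pheromone-response genes, 18 were shared lower and 0 shared higher, 21 were called lower and 1 higher, and the median was -0.92. In a cells these genes make the pheromone a-factor and the receptor for alpha-factor, and the receptor's G protein and kinase cascade switch on further genes for arrest and fusion through the factor Ste12. BAR1 (YIL015W, chromosome IX 322342-324105), the secreted protease that destroys alpha-factor, had 327, 323 and 317 CPM in wild type, 451, 252 and 462 in the TAF14 strain, 34.5, 37 and 37.3 in the deletion strain and 38.9, 40.9 and 44.9 in the W81A strain. The highest lacking library, at 44.9 CPM, was far below the lowest working library, at 252. The log2 difference was -3.19 ± 0.13 (standard error, adjusted p = 1.59e-09). MFA1 (YDR461W, IV:1385176-1385286), the gene of an a-factor precursor, had 98.9, 86.1 and 112 CPM in wild type, 98.7, 66.5 and 113 in the TAF14 strain, 8.4, 10.2 and 9.59 in the deletion strain and 15.2, 14.4 and 14.4 in the W81A strain. Its sides did not overlap either, and its difference was -3.03 ± 0.13 (adjusted p = 2.18e-09). MFA2, the other precursor gene, fell by 0.92 on the log2 scale.

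The receptor gene showed a graded pattern. STE2 (YFL026W, chromosome VI 82580-83875), the alpha-factor receptor, had 758, 744 and 819 CPM in wild type, 768, 669 and 833 in the TAF14 strain, 119, 110 and 109 in the deletion strain and 410, 368 and 405 in the W81A strain. The W81A libraries were between the deletion libraries and the working libraries, and the W81A strain exceeded the deletion strain by 1.80 ± 0.08 in log2 (adjusted p = 8.73e-09). For BAR1 the W81A strain minus the deletion strain was 0.20 ± 0.19 (adjusted p = 0.422). STE6, the exporter of a-factor, fell by 1.09 ± 0.06 (adjusted p = 1.64e-08), with 336, 330 and 333 CPM in the deletion strain and 358, 361 and 372 in the W81A strain, and W81A minus deletion was 0.13 ± 0.08 (adjusted p = 0.231). AGA2, the binding subunit of a-agglutinin, fell by 2.17 ± 0.19, and ASG7, an a-specific regulator of the pheromone signal, by 1.94 ± 0.22. AFB1, a barrier to a-factor made by alpha cells and so not an a-specific gene, was not on the list and fell by 2.22 ± 0.11. AFB1 had 11.9, 10.7 and 12 CPM in wild type and 16.5, 21.1 and 15.7 in the TAF14 strain. It had 1.96, 2.19 and 2.23 in the deletion strain and 4, 4.45 and 4.79 in the W81A strain. It lies on chromosome XII, whose genes were shifted upward in the deletion libraries, where AFB1 was lowest.

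The pheromone signalling cascade list shares genes with the list above. In it 9 of 20 tested genes were shared lower and 0 shared higher, 11 were called lower and 2 higher, and the median was -0.29. Of the 9, FUS3, FAR1, SST2, STE12, GPA1 and MSG5 were already counted there, and STE4, KSS1 and DIG1 were not. GPA1, the alpha subunit of the receptor's G protein, fell by 0.92 ± 0.08 and STE4, the beta subunit, by 0.79 ± 0.06, but STE18, the gamma subunit, was at -0.09 ± 0.10 (adjusted p = 0.462) and the scaffold gene STE5 at -0.03 ± 0.06 (adjusted p = 0.661). FUS3, the mitogen-activated kinase of the pathway, fell by 0.96 ± 0.07 and STE12 by 0.71 ± 0.08. FAR1 (YJL157C, X:123836-126328), an inhibitor of G1 cyclin kinases, had 291, 291 and 289 CPM in wild type, 391, 290 and 402 in the TAF14 strain, 71.2, 64.5 and 65 in the deletion strain and 108, 107 and 112 in the W81A strain. Its lowest working library, at 289 CPM, stood far above its highest lacking library, at 112, and it fell by 1.92 ± 0.07 (adjusted p = 9.54e-10). SST2 (YLR452C, chromosome XII 1039270-1041366), which switches the G protein off, had 259, 248 and 280 CPM in wild type, 364, 281 and 368 in the TAF14 strain, 67.3, 57.2 and 68.1 in the deletion strain and 57, 57.1 and 65.3 in the W81A strain. The W81A libraries, which had no chromosome XII shift, were as low as the deletion libraries, and SST2 fell by 2.26 ± 0.08 (adjusted p = 4.33e-10).

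Fusion genes were divided. FUS1 (YCL027W, III:71803-73341), a membrane protein of mating cell fusion, had 23.2, 20 and 20.1 CPM in wild type, 44, 11 and 44.3 in the TAF14 strain, 5.35, 8.06 and 7.65 in the deletion strain and 4.62, 3.18 and 5.39 in the W81A strain. The lowest working library, replicate 2 of the TAF14 strain, was still above every lacking library, and FUS1 fell by 2.24 ± 0.31 (adjusted p = 7.75e-05), or by 2.45 without that replicate. FUS2, FIG2, PRM3 and CIK1, which act in fusion, mating and nuclear fusion, were not called, at -0.09, -0.12, -0.26 and 0.14. KAR3, the kinesin of nuclear fusion, was the member that rose (0.27 ± 0.07). AGA1, the anchor subunit of a-agglutinin, was called lower without being shared (-1.41 ± 0.24). For AGA1, replicate 2 of the TAF14 strain, at 18.3 CPM, lay among the lacking libraries, which ranged from 11.3 to 22.9. Without that replicate 19 list members were shared lower.

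**Figure D3:**
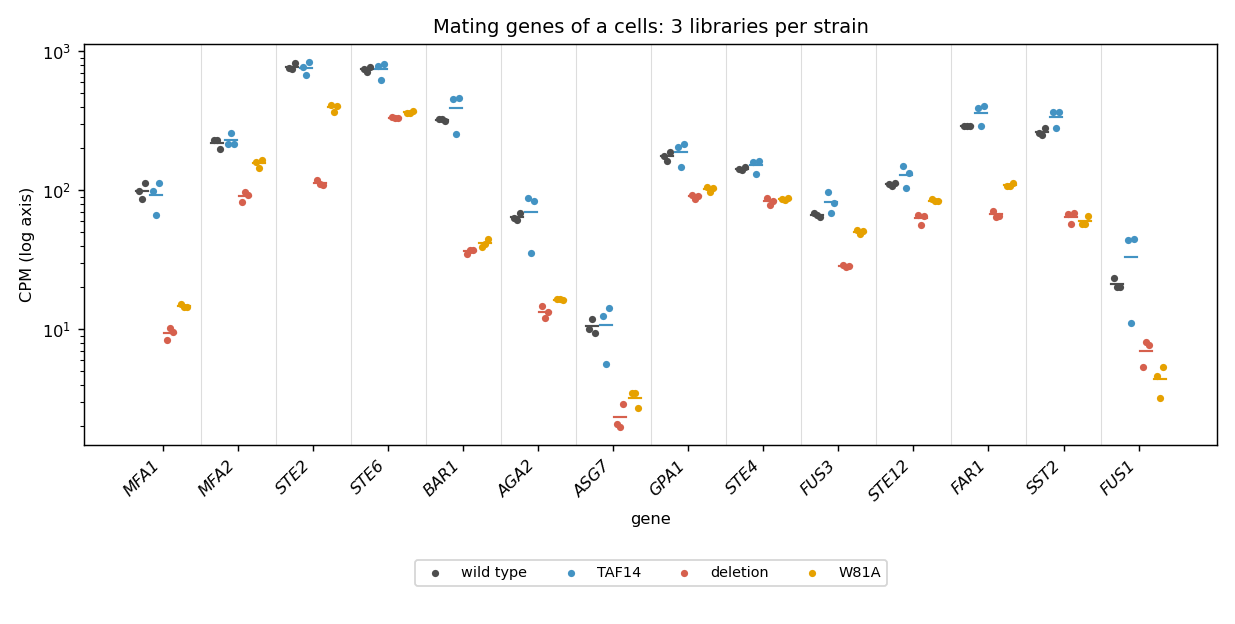
CPM on a log axis for 14 mating genes, with 3 points per strain and a line at the strain mean. The deletion and W81A points lie below the wild type and TAF14 points for each of the 14 genes shown, and STE2 and FUS3 show the W81A strain between the deletion strain and the working strains.

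The mating type of the cells was checked against markers of each cell type. The 7 markers of a cells summed to 2170 to 2300 CPM in wild type, 1910 to 2530 in the TAF14 strain, 597 to 599 in the deletion strain and 947 to 1020 in the W81A strain, and all 7 were shared lower. The 4 markers of alpha cells summed to 34.0 to 37.2, 31.5 to 42.5, 30.1 to 32.2 and 31.0 to 35.6 CPM in the same order, with 0 shared. The alpha-specific list had the same number of tested genes, 0 shared and 2 called lower, with a median of -0.51. AFB1, the alpha-cell gene described above, was on neither the marker list nor this list. It was lower in every lacking library than in every working library. MF(ALPHA)1, a pheromone gene of alpha cells, was at or below 0.291 CPM in the 6 lacking libraries and at or below 1.85 CPM in the working libraries, too few counts for a fold. The 7 haploid markers summed to 660 to 686, 589 to 679, 399 to 429 and 457 to 469 CPM, with 3 shared lower. The 6 meiotic markers summed to 51.7 to 55.7, 52.3 to 55.1, 42.0 to 46.0 and 41.9 to 46.4 CPM, with 0 shared, and none of the markers was at 0 in all libraries. In these bulk libraries fewer cells of a type and less RNA per cell cannot be told apart. Of the haploid-specific list 4 of 11 were shared lower (36.4%, median -0.37), against 6.76% of all tested genes. Of the meiosis list 1 of 20 was shared lower (5.0%, median -0.18). That gene was NDJ1, a meiotic telomere protein, with 13.5, 12.8 and 16.1 CPM in wild type, 34.9, 12 and 31 in the TAF14 strain, 1.64, 1.69 and 2.03 in the deletion strain and 4, 4.66 and 4.69 in the W81A strain.

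The promoters of BAR1, STE2 and FUS1 are shown because each holds the pheromone response element TGAAACA, the site Ste12 binds. Each stretch runs from 250 to 101 bases before the annotated gene start, from the RefSeq R64 genome, 5′ to 3′ on the gene's strand (plus for all), with the element in capitals: BAR1 at IX:322092-322241, STE2 at VI:82330-82479 and FUS1 at III:71553-71702.
BAR1: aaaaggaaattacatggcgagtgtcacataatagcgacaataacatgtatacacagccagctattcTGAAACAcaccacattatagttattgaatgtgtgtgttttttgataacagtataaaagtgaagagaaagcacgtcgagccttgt
STE2: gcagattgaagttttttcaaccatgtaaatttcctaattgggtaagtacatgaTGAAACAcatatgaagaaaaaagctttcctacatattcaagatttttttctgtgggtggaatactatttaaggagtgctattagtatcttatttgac
FUS1: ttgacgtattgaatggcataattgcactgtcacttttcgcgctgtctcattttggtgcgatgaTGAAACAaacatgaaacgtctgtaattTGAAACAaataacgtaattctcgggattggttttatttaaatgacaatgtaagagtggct
Over windows from 250 bases before to 50 after the gene start, on both strands, TGAAACA was found in 10 of the 18 shared list members (55.6%), in 17 of all 29 tested members (58.6%), in 11.3% of shared lower genes, in 5.77% of shared higher genes and in 7.32% of 5645 promoters of tested genes. MFA1, ASG7, FAR1, STE12 and GPA1 fell without these letters in the window, and FUS2, with 2 matches, was not called.

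On the other side, the general stress response gave more shared higher genes than any other list described here. Of 40 tested genes known as targets of the stress factors Msn2 and Msn4, 13 were shared higher and 0 shared lower, 24 were called higher and 6 lower, and the median was 0.63. The group moved mainly in the deletion strain: its median was 1.09 and 1.27 against wild type and the TAF14 strain there, and 0.04 and 0.13 in the W81A strain. HSP12 (YFL014W, chromosome VI 107256-107585), a small membrane-stabilising stress protein, had 79.2, 45.4 and 43.6 CPM in wild type, 6.18, 165 and 6.18 in the TAF14 strain, 1380, 1490 and 1560 in the deletion strain and 1210, 1150 and 1300 in the W81A strain. The lowest lacking library had 1150 CPM and the highest working library 165. The difference was 4.53 ± 0.62 (adjusted p = 7.15e-05), 6.17 without replicate 2 of the TAF14 strain and 5.33 by limma-voom. W81A minus deletion was -0.27 ± 0.74 (adjusted p = 0.788).

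Other stress genes rose less in the W81A strain. MSC1 (YML128C, chromosome XIII 15135-16676) had 36.1, 28.7 and 29.8 CPM in wild type, 17.9, 27.5 and 18.1 in the TAF14 strain, 266, 251 and 275 in the deletion strain and 96.8, 77.4 and 95.6 in the W81A strain, a rise of 2.57 ± 0.10 (adjusted p = 1.58e-09). CTT1, the cytosolic catalase, had 14.9, 13.4 and 11.8 CPM in wild type, 9.74, 13 and 8.02 in the TAF14 strain, 64, 61.2 and 63.4 in the deletion strain and 18.5, 15 and 17.5 in the W81A strain. Its lowest W81A library was only just above the highest working library, and W81A minus deletion was -1.89 ± 0.13 (adjusted p = 2.22e-07). HXK1, a hexokinase, rose by 1.99 ± 0.13 with W81A minus deletion at -2.26 ± 0.18, and GLK1, glucokinase, by 1.88 ± 0.13 with -1.58 ± 0.18. GLK1 overlaps the annotated gene YCL042W, so its reads cannot be assigned with certainty. HSP26, a small heat shock protein, was higher in the W81A strain (43.4, 54 and 45.9 CPM) than in the deletion strain (28.1, 35.7 and 25.9), and its TAF14 libraries (23.1, 13.6 and 25.4) came close to the lowest of these. HOR7, a gene induced by osmotic stress, rose by 1.78 ± 0.23, GAD1, glutamate decarboxylase, by 1.73 ± 0.19, and GRE1, a hydrophilin, by 1.53 ± 0.19.

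The promoters of HSP12 and MSC1 are shown for the element AGGGG, the site Msn2 and Msn4 bind, which stands in capitals and reads CCCCT on the opposite strand. HSP12 is at VI:107006-107155 (plus strand) and MSC1 at XIII:16777-16926 (minus strand), again from 250 to 101 bases before the gene start in R64.
HSP12: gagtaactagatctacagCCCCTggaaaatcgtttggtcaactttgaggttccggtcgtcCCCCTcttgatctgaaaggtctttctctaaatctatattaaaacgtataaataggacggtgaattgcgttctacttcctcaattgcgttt
MSC1: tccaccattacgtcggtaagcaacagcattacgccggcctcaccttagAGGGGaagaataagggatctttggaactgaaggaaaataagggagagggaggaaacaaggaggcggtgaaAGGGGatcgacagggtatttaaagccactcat
AGGGG was found in 29.8% of shared higher genes, 14.9% of shared lower genes and 21.8% of all promoters searched, and in 7 of the 13 shared and 24 of the 40 tested stress genes.

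Heat shock and oxidant genes were mixed. Of 32 heat shock chaperone genes 2 were shared higher (SSA1 and HSP26) and 2 shared lower (SSB1 and SSB2). Each share was 6.25%, near the 5.32% and 6.76% of all tested genes. Of this list 16 were called higher and 7 lower, with a median of 0.20. SSA1, SSB1 and SSB2 each match another gene over 100% of their length, so their reads cannot be assigned with certainty. The median of the heat shock list was 0.64 and 0.52 in the deletion strain against wild type and the TAF14 strain. In the W81A strain it was -0.30 and -0.26. Of 30 oxidant defence genes 9 were shared higher and 3 shared lower, and 14 were called higher and 4 lower (median 0.15). AHP1, a thiol peroxidase on chromosome XII, had 1920, 1830 and 1730 CPM in wild type, 2890, 3370 and 2950 in the TAF14 strain, 7680, 8780 and 7850 in the deletion strain and 3880, 3990 and 3820 in the W81A strain. The W81A libraries, without the chromosome XII shift, exceeded all working libraries, and AHP1 rose by 1.25 ± 0.06 (adjusted p = 5.06e-09). TRR2, mitochondrial thioredoxin reductase, rose by 0.87 ± 0.06. Among the 3 that fell was GSH1, which makes the first intermediate of glutathione (-1.02 ± 0.12), with the old yellow enzyme OYE2 (-0.91 ± 0.09) and the peroxidase GPX2 (-0.80 ± 0.13). These 3 were named after their values were seen.

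Many energy genes of the mitochondrion were called higher. Of 22 tricarboxylic acid cycle genes 4 were shared higher, 15 were called higher and 0 lower, and the median was 0.33. Against wild type and the TAF14 strain the median was 0.45 and 0.55 in the deletion strain. It was 0.07 and 0.20 in the W81A strain, which was below the deletion strain for 15 of the 22. Of 38 nuclear genes of the respiratory chain and ATP synthase 6 were shared higher, 25 were called higher and 1 lower, and the median was 0.30. The TAF14 strain was below wild type for 25 of the 38 (median -0.41). Against wild type the median was 0.20 in the deletion strain and -0.09 in the W81A strain, with 4 called higher and 4 lower in W81A. Against the TAF14 strain these medians were 0.56 and 0.37, with 21 called higher in W81A. KGD1, of the alpha-ketoglutarate dehydrogenase, had 367, 351 and 339 CPM in wild type, 319, 368 and 312 in the TAF14 strain, 502, 507 and 469 in the deletion strain and 424, 380 and 421 in the W81A strain. The lowest lacking library had 380 CPM and the highest working library 368, and KGD1 rose by 0.39 ± 0.05 (adjusted p = 5.42e-05). KGD2, of the same enzyme, rose by 0.35 ± 0.05 and LSC2, of succinyl-CoA ligase, by 0.80 ± 0.11. ATP16, the delta subunit of ATP synthase, had 110, 115 and 106 CPM in wild type, 85.1, 96.1 and 95 in the TAF14 strain, 136, 142 and 122 in the deletion strain and 140, 143 and 151 in the W81A strain, and rose by 0.46 ± 0.05 (adjusted p = 8.08e-06). ATP3, the gamma subunit, rose by 0.57 ± 0.07, and STF1, a regulator of the enzyme, by 1.03 ± 0.12. MCR1, a mitochondrial cytochrome b5 reductase, rose by 1.82 ± 0.07. Of 6 tested genes encoded in mitochondrial DNA 5 were called higher and 0 were shared (median 0.50), with the W81A strain below the deletion strain for 5. In the mitochondrial ribosomal protein list 4 of 68 were shared higher (median 0.09), near the 5.32% of all tested genes.

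Carbon genes went in both directions. Of 33 glycolysis and fermentation genes 5 were shared higher and 1 lower, and 17 were called higher and 5 lower (median 0.20). The TAF14 strain was called above wild type for 18 and below it for 4 (median 0.33). In the deletion strain 18 were called higher and 4 lower against wild type, and 11 and 9 against the TAF14 strain (medians 0.27 and -0.04). In the W81A strain 22 and 4, and 8 and 3, were called (medians 0.50 and 0.13). ALD6, cytosolic acetaldehyde dehydrogenase, had 356, 408 and 349 CPM in wild type, 787, 594 and 691 in the TAF14 strain, 1640, 1810 and 1770 in the deletion strain and 943, 916 and 934 in the W81A strain, a rise of 1.33 ± 0.07. The 1 that fell was HXK2, the main hexokinase in glucose (-0.52 ± 0.06), named after its values were seen. Of 22 hexose and maltose transport genes 4 were shared lower and 0 higher, and 6 were called lower and 5 higher (median -0.10). Among those shared were HXT4, a glucose transporter, at -1.52 ± 0.13, the maltose permease gene MAL31 at -0.64 ± 0.10 and STD1, of glucose sensing, at -0.34 ± 0.05. The glucose transporter genes HXT1 and HXT3 were among those called higher without being shared (0.44 ± 0.07 and 0.39 ± 0.06). Of 11 carbonic anhydrase, bicarbonate-using and related genes 3 were shared higher and 8 called higher (median 0.54). PYC1, pyruvate carboxylase, had 248, 208 and 195 CPM in wild type, 368, 275 and 323 in the TAF14 strain, 1330, 1380 and 1440 in the deletion strain and 461, 402 and 523 in the W81A strain. URA2, the first enzyme of pyrimidine synthesis, rose by 1.21 ± 0.06. The carbonic anhydrase NCE103 was called higher but was not shared: it had 1620, 1530 and 1690 CPM in the deletion strain and 61.1, 68.1 and 50.7 in the W81A strain, against 48.9 to 64.7 in the working libraries.

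Part of the nitrogen genes rose in both lacking strains. Of 37 tested genes of nitrogen catabolite repression and amino acid permeases 7 were shared higher and 1 lower (UGA4, at -0.88 ± 0.15), 19 were called higher and 5 lower, and the median was 0.20. GAP1 (YKR039W, XI:515063-516871), a broad permease for amino acids, had 10.1, 8.01 and 7.27 CPM in wild type, 7.33, 10.3 and 7.8 in the TAF14 strain, 30.5, 38.3 and 40.5 in the deletion strain and 39.7, 44 and 35.5 in the W81A strain. The lacking strains overlapped each other and stood far above the working strains, and the difference was 2.16 ± 0.11 (adjusted p = 1.17e-08). AGP1, another broad permease, rose by 1.34 ± 0.07. CHA1 (YCL064C, III:15798-16880), which breaks down serine and threonine, had 20.5, 35.4 and 27.9 CPM in wild type, 10.4, 39.9 and 10.6 in the TAF14 strain, 48.9, 54.9 and 46.5 in the deletion strain and 197, 209 and 193 in the W81A strain. It was highest in the W81A strain, at 1.99 ± 0.34 above the deletion strain in log2 (adjusted p = 0.000413). Lacking minus working was 2.06 ± 0.26, and 2.55 without replicate 2 of the TAF14 strain.

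Amino acid synthesis genes, many of them targets of the activator Gcn4, were mixed. Of 58 tested 9 were shared higher and 5 lower, 31 were called higher and 12 lower, and the median was 0.16. Against wild type and the TAF14 strain the median was 0.45 and 0.49 in the deletion strain. It was -0.13 and -0.05 in the W81A strain, which was below the deletion strain for 38 of the 58 and above it for 0. Against wild type the W81A strain was called lower for 24 and higher for 12. Among the 9 that rose were 5 genes of arginine synthesis and its carbamoyl phosphate supply, ARG3, ARG1, ARG56, ARG8 and CPA1, and GCN4 itself, a grouping made after their values were seen. ARG3 (YJL088W, chromosome X 268799-269815), ornithine carbamoyltransferase, had 47.7, 45.8 and 51.4 CPM in wild type, 42.2, 32 and 43 in the TAF14 strain, 245, 237 and 234 in the deletion strain and 165, 200 and 176 in the W81A strain. It rose by 2.26 ± 0.07 (adjusted p = 3.39e-10), and W81A minus deletion was -0.41 ± 0.09 (adjusted p = 0.00385). ARG1 rose by 1.29 ± 0.12, ARG56 by 1.16 ± 0.06, CPA1 by 0.78 ± 0.08, ARG8 by 0.74 ± 0.05 and GCN4 by 0.54 ± 0.07. HIS4, of histidine synthesis, rose by 1.10 ± 0.06, with 2920, 3140 and 2970 CPM in the deletion strain and 1140, 1360 and 1340 in the W81A strain, against 772 to 1060 in the working libraries. LEU9, an alpha-isopropylmalate synthase, fell by 0.86 ± 0.04. The Gcn4 site TGACTC was found in 7 of the 14 shared and 32 of the 58 tested list members, and in 10.9% of shared higher, 7.18% of shared lower and 8.27% of all promoters. The GATA factor site GATAAG was found in 62.5% of the shared and 40.5% of the tested nitrogen genes, and in 17.3%, 13.8% and 14.5% of the same 3 groups.

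**Figure D4:**
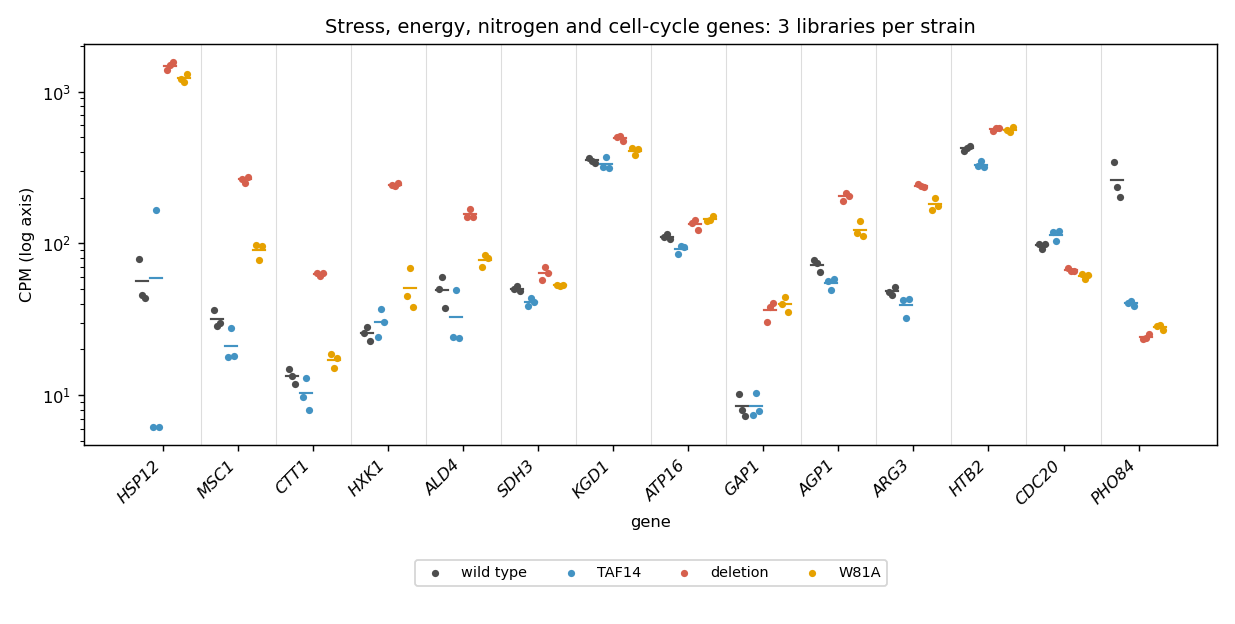
CPM on a log axis for 14 genes of stress, energy, nitrogen, cell-cycle and phosphate lists, with 3 points per strain and a line at the strain mean. The deletion and W81A points lie above the working points for HSP12 through HTB2 and below them for CDC20 and PHO84, and the W81A points lie just above the working ones for CTT1 and SDH3.

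Cell-cycle groups moved apart. Of 20 tested genes of the CLB2 cluster, expressed at G2/M, 10 were shared lower and 0 higher, 17 were called lower and 1 higher, and the median was -0.46. The 10 included PHO3, the largest fall of the list (-2.06 ± 0.05), and HST3, which are also counted in other lists below. CDC20 (YGL116W, chromosome VII 289809-291641), an activator of the anaphase-promoting complex, had 98.4, 92.2 and 99.5 CPM in wild type, 119, 103 and 120 in the TAF14 strain, 68.2, 65.2 and 66 in the deletion strain and 63.1, 58 and 62 in the W81A strain. The lowest working library had 92.2 CPM and the highest lacking library 68.2, and CDC20 fell by 0.72 ± 0.05 (adjusted p = 1.69e-07). HOF1, of cytokinesis, fell by 0.77 ± 0.05, CDC5, the polo kinase, by 0.67 ± 0.05, and CHS2, the chitin synthase of the septum, by 0.62 ± 0.05. CLB2, the cyclin that names the cluster, was called lower but not shared, since its W81A libraries (150, 145 and 141 CPM) overlapped those of wild type (142, 136 and 139). NDD1, the activator of the cluster, was the member that rose (0.21 ± 0.06). Of 34 G1/S genes 4 were shared higher and 2 lower (CLB5 and CLB6, the S-phase cyclins, at -0.36 ± 0.06 and -0.96 ± 0.11). In this list 16 were called higher and 5 lower, and the median was 0.11. Relative to wild type, the W81A strain had 15 called higher and 2 lower (median 0.22). The deletion strain went the other way, with 6 higher and 14 lower (median -0.18). Relative to the TAF14 strain these counts were 24 and 2 for W81A (median 0.37) and 9 and 8 for the deletion (median -0.05). The W81A strain was above the deletion strain for 19 of the 34 and below it for 1. CDC21, thymidylate synthase, had 34.6, 33.6 and 32.2 CPM in wild type, 32, 32.2 and 31.4 in the TAF14 strain, 42.2, 43.7 and 41.2 in the deletion strain and 50.4, 45.5 and 52 in the W81A strain, and rose by 0.48 ± 0.05 (adjusted p = 5.01e-06). RAD27, the flap endonuclease, rose by 0.33 ± 0.04, RFA1, of replication protein A, by 0.27 ± 0.04 and TOS6, a cell wall protein, by 0.96 ± 0.10.

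The promoters of CDC21 (XV:467690-467839, minus strand) and RAD27 (XI:225976-226125, minus strand) are shown for ACGCGT, the MluI cell-cycle box bound by MBF, in capitals, in the same stretch of R64 before the gene start.
CDC21: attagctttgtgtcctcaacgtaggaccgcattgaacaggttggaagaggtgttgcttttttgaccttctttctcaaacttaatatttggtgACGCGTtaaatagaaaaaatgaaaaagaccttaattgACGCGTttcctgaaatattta
RAD27: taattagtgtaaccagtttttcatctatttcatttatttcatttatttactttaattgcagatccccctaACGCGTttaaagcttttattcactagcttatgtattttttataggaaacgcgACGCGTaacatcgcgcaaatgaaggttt
ACGCGT was found in 21 of 312 shared higher promoters (6.73%), 3 of 390 shared lower promoters (0.769%) and 3.21% of all promoters.

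Histone genes rose in part. Of 11 tested 4 were shared higher and 7 called higher, with 0 lower (median 0.19). The TAF14 strain was below wild type for 7 of the 11 (median -0.30). Relative to wild type, the deletion strain had 3 called higher and 4 lower (median -0.22). The W81A strain had 7 and 0 (median 0.33). Relative to the TAF14 strain these counts were 5 and 2 for the deletion (median 0.08) and 11 and 0 for W81A (median 0.60). HTB2, for histone H2B, had 408, 425 and 437 CPM in wild type, 323, 346 and 319 in the TAF14 strain, 553, 574 and 574 in the deletion strain and 561, 538 and 583 in the W81A strain, a rise of 0.59 ± 0.04 (adjusted p = 1.69e-07). HHT2, for H3, rose by 0.61 ± 0.06, HTA2, for H2A, by 0.41 ± 0.07 and HHF2, for H4, by 0.47 ± 0.05, but HHF2 has a near copy over 100% of its length. The other H2A and H2B genes differed between the lacking strains: HTA1 had 103, 114 and 120 CPM in the deletion strain and 234, 240 and 242 in the W81A strain, against 139 to 242 in the working libraries, and was not called (-0.21 ± 0.09, adjusted p = 0.0706). HTB1 was not called either (0.03 ± 0.07, adjusted p = 0.781). Of 21 M/G1 and daughter separation genes 3 were shared lower and 0 higher, but 10 were called higher and 7 lower (median 0.14). TEC1, which partners Ste12, fell by 1.24 ± 0.09, and the replication helicase genes MCM3 and MCM7 by 0.41 ± 0.05 and 0.38 ± 0.04. Those called higher without being shared included PRY3, a cell wall-associated protein (0.64 ± 0.11), and DSE2, of daughter cell separation (0.57 ± 0.11), and the W81A strain was below the deletion strain for 15 of the 21. Of 38 DNA damage and repair genes 3 were shared higher (7.89%, against 5.32% of all tested genes) and 1 lower (2.63%, against 6.76%), and 10 were called higher and 8 lower (median 0.02). The 1 lower gene, RNR2, the small subunit of ribonucleotide reductase, fell by 0.62 ± 0.04.

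More phosphate genes were called lower than higher, but the working strains were far apart. Of 24 tested 6 were shared lower and 0 higher, 15 were called lower and 3 higher, and the median was -0.22. PHO84, the high-affinity phosphate transporter, had 342, 234 and 202 CPM in wild type, 40.1, 41.9 and 38.5 in the TAF14 strain, 23.4, 23.6 and 25.1 in the deletion strain and 28.5, 28.9 and 26.9 in the W81A strain. The TAF14 strain lay much closer to the lacking strains than to wild type, and TAF14 minus wild type was -2.69 ± 0.15 in log2 (adjusted p = 2.14e-07). PHO84 overlaps the annotated RNA gene YNCM0001W. PHO5, the secreted acid phosphatase, had 139, 114 and 80.5 CPM in wild type, 24.6, 32.4 and 25.5 in the TAF14 strain, 10.8, 14.1 and 15.2 in the deletion strain and 14.7, 13.9 and 16.4 in the W81A strain, with the same order of strains. PHO3, a neighbouring acid phosphatase that thiamine represses, had 662, 649 and 684 CPM in wild type, 804, 891 and 838 in the TAF14 strain, 163, 157 and 150 in the deletion strain and 200, 200 and 223 in the W81A strain. Here the working strains were both high, and PHO3 fell by 2.06 ± 0.05 (adjusted p = 1.07e-11). In the window from 250 bases before to 50 after the gene start, the Pho4 site CACGTG was found in 0 of the 6 shared phosphate genes. It was found there in 25.0% of the tested ones and in 2.94% of all promoters. Sites farther upstream were not searched, so the 0 does not show that these genes lack the site.

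Some genes of biotin, sulfur and purine metabolism fell in both lacking strains. BIO2, biotin synthase, had 86.1, 87.7 and 76.8 CPM in wild type, 71.9, 86.4 and 69.4 in the TAF14 strain, 15.3, 16.6 and 19.6 in the deletion strain and 27.9, 27.3 and 27.7 in the W81A strain, and fell by 1.87 ± 0.07 (adjusted p = 1.29e-09). BIO5, of biotin uptake, fell by 0.65 ± 0.09, and NRK1, of NAD salvage, rose by 0.45 ± 0.07. The NAD and biotin list of 20 tested genes had these 3 shared, 5 called higher and 7 lower (median -0.12). Of 27 sulfur and methionine genes 6 were shared lower and 0 higher, 13 were called lower and 3 higher, and the median was -0.25. Those that fell included SAM2, S-adenosylmethionine synthetase (-1.39 ± 0.16), MUP3, a methionine permease (-1.11 ± 0.13), and CYS4, cystathionine beta-synthase (-0.70 ± 0.06). SAM2 had 178 CPM in replicate 2 of the TAF14 strain, 380 to 458 in the other working libraries and 130 to 175 in the lacking libraries, and without that replicate its difference was -1.53. Of 26 purine genes 5 were shared lower (19.2%, against 6.76% of all tested genes) and 0 higher. Of the 26, 11 were called lower and 4 higher (median -0.06), together 57.7% against 45.3% of all tested genes. IMD2, of guanine nucleotide synthesis, fell by 1.72 ± 0.13, AAH1, adenine deaminase, by 0.77 ± 0.04, and IMD4, which overlaps the RNA gene YNCM0005C, by 0.86 ± 0.06. The vitamin B6 and thiamine list had 1 of 23 shared higher (PDX3, at 0.40 ± 0.04) and 1 lower (PHO3), with 4 called in each direction. Each shared share was 4.35%, below the 5.32% and 6.76% of all tested genes.

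Metal genes went both ways. Of 41 iron and copper genes 6 were shared higher (14.6%) and 5 lower (12.2%), against 5.32% and 6.76% of all tested genes. In each direction 12 were called (median -0.05), together 58.5% against 45.3% of all tested genes. FET3, the ferroxidase of high-affinity iron uptake, had 1210, 1080 and 1030 CPM in wild type, 865, 949 and 882 in the TAF14 strain, 1620, 1780 and 1820 in the deletion strain and 2140, 2530 and 2280 in the W81A strain, and rose by 1.01 ± 0.06 (adjusted p = 4.21e-08). FIT2, a wall protein that retains siderophore iron, rose by 2.06 ± 0.16, with 126, 133 and 152 CPM in the deletion strain and 41.4, 53.5 and 39.8 in the W81A strain. FET4, the low-affinity iron transporter, had 109, 133 and 112 CPM in wild type, 144, 149 and 143 in the TAF14 strain, 40.8, 40.6 and 38.1 in the deletion strain and 51.3, 51.8 and 60.7 in the W81A strain, and fell by 1.49 ± 0.06 (adjusted p = 1.59e-09). ZRT2, the low-affinity zinc transporter on chromosome XII, fell by 1.23 ± 0.06, with 74.1, 76 and 74 CPM in the W81A strain, below the 86.3, 105 and 93.1 of the deletion strain. Of 35 ergosterol and related genes 2 were shared higher and 3 lower, and 8 were called higher and 15 lower (median -0.13). The shared shares, 5.71% and 8.57%, were near the 5.32% and 6.76% of all tested genes. ERG3, the sterol desaturase on chromosome XII, rose by 0.94 ± 0.05, with 983, 1010 and 988 CPM in the W81A strain, above the 784, 877 and 866 of the deletion strain.

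Most cytosolic ribosomal protein genes were called lower, by small amounts. Of 134 cytosolic ribosomal protein genes 34 were shared lower and 0 higher, 103 were called lower and 1 higher, and the median was -0.28. In the W81A strain 21 were called lower against wild type (median -0.14) and 90 against the TAF14 strain (median -0.30). In the deletion strain 76 and 106 were (medians -0.26 and -0.39). The median of TAF14 minus wild type was 0.16. RPS13, of the small subunit, had 970, 966 and 1010 CPM in wild type, 905, 980 and 1080 in the TAF14 strain, 619, 620 and 616 in the deletion strain and 748, 705 and 791 in the W81A strain, and fell by 0.53 ± 0.05 (adjusted p = 2.57e-06). RPL7B fell by 0.66 ± 0.05, but it matches another gene over 43.9% of its length and overlaps the RNA gene YNCP0003W. Near copies were found for 40 of the 134. Of 65 ribosome biogenesis genes 3 were shared lower (UTP10, DBP3 and MAK16) and 32 called lower (median -0.12). Against wild type the W81A strain was called higher for 9 and lower for 2 (median 0.04). The deletion strain was called higher for 2 and lower for 30 (median -0.14). Against the TAF14 strain the W81A strain was called lower for 15 and the deletion strain for 45. The TAF14 strain was called above wild type for 18 (median 0.15). Of 19 RNA polymerase I and III genes 2 were shared lower and 11 called lower (median -0.15). Against wild type the W81A strain was called higher for 1 of these and lower for 1 (median 0.0018). The deletion strain was called lower for 9 (median -0.09). Against the TAF14 strain 9 and 13 were called lower in the W81A and deletion strains. Of 12 RNA polymerase II genes 1 was shared higher, RPB11 (0.29 ± 0.04). For ribosome biogenesis the shared share, 4.62%, was below the 6.76% of all tested genes.

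Genes for the complexes that hold Taf14 changed little as a group. Of 59 tested 5 were shared higher and 1 lower, 17 were called higher and 7 lower, and the median was 0.03. The shared shares were 8.47% and 1.69%, against 5.32% and 6.76% of all tested genes. In either direction 40.7% were called, against 45.3% of all tested genes. SAS3, the catalytic subunit of NuA3, had 98.3, 103 and 114 CPM in wild type, 99.3, 89.4 and 95.1 in the TAF14 strain, 58.7, 50.7 and 50.4 in the deletion strain and 70.9, 67.4 and 65.5 in the W81A strain, and fell by 0.73 ± 0.05 (adjusted p = 3.83e-07). IES5, of INO80, rose by 0.37 ± 0.05 and EAF6, of NuA3, by 0.33 ± 0.06. Of 44 SAGA, NuA4 and other acetylation and deacetylation genes 3 were shared lower (6.82%, against 6.76% of all tested genes) and 0 higher, 11 were called lower and 7 higher, and the median was 0.01. The 3 were HST3 (-0.63 ± 0.05), HST4 (-0.35 ± 0.08) and HDA1 (-0.14 ± 0.04), which encode deacetylases. RPD3, another deacetylase, and HDA2, a partner of Hda1, were called higher (0.16 ± 0.04 and 0.23 ± 0.05). HDA1 was no longer called when replicate 1 of the TAF14 strain, replicate 2 of the W81A strain or replicate 2 of the deletion strain was left out (-0.11, -0.11 and -0.13). Of 46 cell wall genes 6 were shared lower (13.0%, against 6.76% of all tested genes) and 2 higher (4.35%, against 5.32%). Of the 46, 12 were called lower and 14 higher (median 0.03), together 56.5% against 45.3% of all tested genes. The sensor gene WSC3 was at -0.87 ± 0.07 and its kinase SLT2 at -0.47 ± 0.05. Of 32 fatty acid and phospholipid genes 1 (3.12%) was shared lower, INO2 (-0.64 ± 0.07), an activator of phospholipid genes. In that list 14 were called lower and 4 higher (median -0.15). Against wild type and the TAF14 strain the median was -0.35 and -0.26 in the deletion strain. It was -0.05 and 0.06 in the W81A strain, which was above the deletion strain for 22 and below it for 5. Against wild type 20 were called lower and 3 higher in the deletion strain, and 5 in each direction in the W81A strain. Among 138 protein-coding genes within 20 kb of a chromosome end 17 were shared lower (12.3%) and 5 higher (3.62%), against 6.76% and 5.32% of all tested genes. Of the 138, 56 were called lower and 17 higher (median -0.26), together 52.9% against 45.3% of all tested genes. COS10, of the subtelomeric COS family, had 15.3, 11.3 and 14.5 CPM in wild type, 21, 12.8 and 19 in the TAF14 strain, 0.655, 1.09 and 0.969 in the deletion strain and 9.44, 7.94 and 9.68 in the W81A strain, and fell by 2.42 ± 0.17, or by 1.65 in a model with 2 groups.

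Some groups were called as a mean without being shared. Of 34 proteasome genes 17 were called higher and 0 were shared (median 0.12). The median was 0.38 and 0.26 in the deletion strain and -0.05 and -0.17 in the W81A strain, against wild type and the TAF14 strain, and the W81A strain was below the deletion strain for 32 of the 34. Chromosome XII genes were called higher for 136 of 471 and lower for 45 (median 0.14), while 5 and 13 were shared. Without replicate 2 of the TAF14 strain 79 and 13 of these genes were shared. Their median was 0.46 in the deletion strain and -0.0015 in the W81A strain, both minus wild type.

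**Figure D5:**
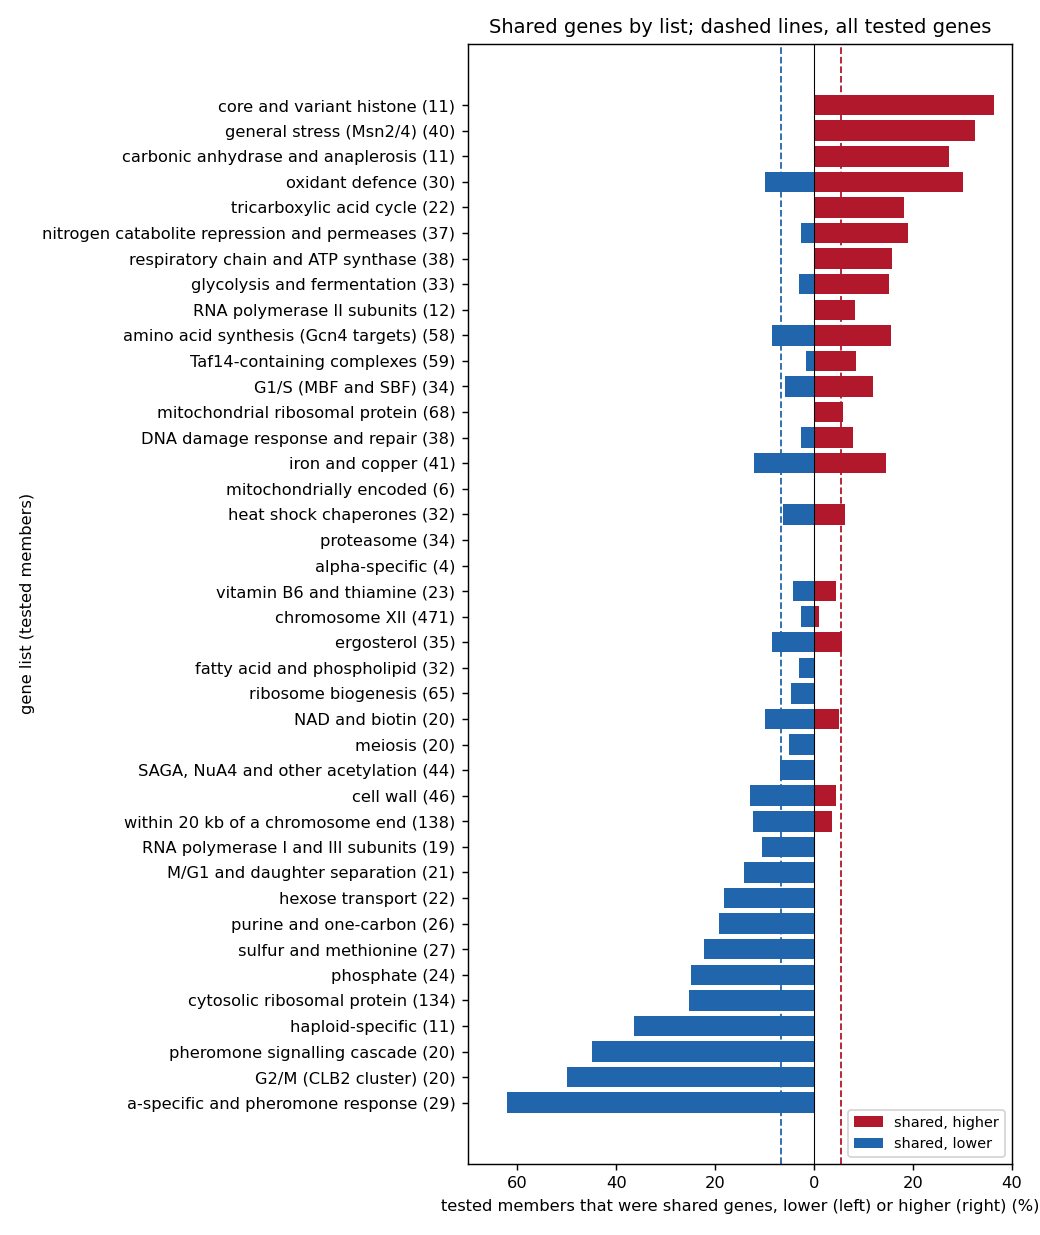
Bars give the share of each list's tested genes (numbers in brackets) that were shared higher (right, red) or shared lower (left, blue), and dashed lines give the same over all tested genes, 5.32% and 6.76%. The a-specific and pheromone response list reaches 62.1% lower and the G2/M list 10 of 20 lower, and the histone list reaches 36.4% and the general stress list 32.5% higher.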

How the data were processed

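RNA from 12 libraries of 4 strains, 3 each, was extracted with phenol and chloroform, treated with DNase and made into stranded libraries after Ribo-Zero depletion, per the labels' protocols. The authors deposited raw counts per gene for all libraries, 9.01 M to 11.7 M each. Per the submitters' processing notes, TopHat2 2.0.14, SAMtools 0.1.19, HTSeq 0.6.1p1 and DESeq2 1.8.1 were used with the sacCer3 build. The strand setting of the counting is not given in the sources used here.

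Of 6692 entries, 774 were removed by edgeR's filterByExpr and 5918 were tested. edgeR 4.0.16 (R 4.3.3) fitted 4 strain means by quasi-likelihood with TMM scaling and 8 residual degrees of freedom (biological coefficient of variation 8.59%), and p-values were adjusted by the Benjamini-Hochberg method with a threshold of 0.05. CPM are counts scaled to TMM-adjusted library size, log2 differences are from this fit, and ± gives the standard error. CPM depend on transcript length and were not compared between genes. A shared gene was called and had all 6 lacking libraries on the same side of all 6 working libraries. Names and positions came from the RefSeq R64 annotation for 6008 entries. The other 684 held 0.952% of the counts. A near copy matched another gene at 95% identity or more over at least 30% of its length (blastn 2.17.0+).

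The comparison and the gene lists were chosen with earlier results of these data known. The text names the locus and marker genes TAF14, SPO19, HIS3, LEU2, URA3 and MET17. TBF1 and CYC8, planned with them, are not described. It names the 15 largest rises and 15 largest falls among shared genes with a standard name and a mean log2 CPM of at least 3. It also names up to 3 shared genes with the smallest p in each list. Other named genes were chosen after their values were seen. Alternatives were DESeq2 1.42.0, limma-voom (limma 3.58.1), other scalings, filters, dispersion and models, a 2-fold limit, a replicate block and leaving out each library or chromosome XII. The fit and the rule for shared genes were tested on simulated data. A floor of 3 counts covers counting error only.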

Additional observations from a re-analysis of the deposited data

Results flagged for a closer look

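The strains lacking the pocket went to opposite sides of both working strains for some genes, which the mean of the lacking strains does not show. There were 43 genes called higher in the deletion strain and lower in the W81A strain, each against both working strains, and 30 called lower in the deletion strain and higher in the W81A strain. The difference itself was tested as W81A minus deletion by edgeR's quasi-likelihood test. HSP104, a disaggregase on chromosome XII, had 325, 345 and 322 CPM in wild type, 194, 298 and 211 in the TAF14 strain, 782, 833 and 783 in the deletion strain and 130, 145 and 130 in the W81A strain, and its W81A minus deletion difference was -2.56 (adjusted p = 1.67e-08). The W81A libraries, without the chromosome XII shift, lay below every working library. The same difference was -2.31 for NCW2, a cell wall protein also on chromosome XII, -2.28 for HSP42, a small heat shock protein (adjusted p = 2.52e-08), and -2.10 for AIM17 (adjusted p = 5.97e-09). OLE1, the fatty acid desaturase, had 503, 533 and 517 CPM in the deletion strain and 2070, 1970 and 2230 in the W81A strain, against 1020 to 1390 in the working libraries, a difference of 2.01 (adjusted p = 2.36e-08). The difference was 1.60 for YGP1, a secreted glycoprotein, 1.50 for CLB1, a B-type cyclin, and 1.47 for OCH1, a mannosyltransferase of the Golgi.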

How the results depend on the processing

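No called value described in the text changed direction under any alternative that was run. Of the 715 shared genes all were kept by limma-voom and by robust dispersion, 691 by DESeq2, 701 by the 2-group model, 694 by relative log expression scaling, 649 by upper-quartile scaling and 709 without the filter. With a 10 CPM filter 661 of 668 genes still tested were kept, among nuclear protein-coding genes 669 of 702, and without chromosome XII 658 of 697. A test against a 2-fold limit called 28 genes higher and 54 lower, of which 25 and 46 were shared, with 3 and 9 called in all 4 pairs, 10 shared genes differing between the lacking strains and 3 between the working strains. The 2-group model, in which the difference between strains of a side counts as spread, called 665 higher and 783 lower. An alternative chosen after seeing the data left out chromosome XII and replicate 2 of the TAF14 strain together, and gave 388 higher and 444 lower shared genes, of which 197 differed between the working strains.

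Leaving out each library in turn gave 1158 to 1565 genes called higher and 1228 to 1484 lower, 333 to 441 and 405 to 504 not overlapping, 331 to 440 and 404 to 503 shared, and 151 to 281 and 205 to 326 in all 4 pairs. It gave 207 to 412 shared genes differing between the lacking strains and 62 to 222 between the working strains. The highest shared count and the 412 were without replicate 2 of the TAF14 strain. Removing a library relaxes the demand that libraries not overlap. Without replicate 2 of the TAF14 strain the shared higher genes of chromosome XII also went from 5 to 79. Same-numbered libraries of different strains did not deviate together (r from -0.219 to 0.309, median 0.022, 18 pairs), so the numbers did not pair the samples, and the fit with the replicate block called 1322 higher and 1351 lower, 315 and 400 shared and 201 and 263 in all 4 pairs. TAF14 and HDA1 were not called under the 2-group model.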
